A study of Mus musculus with 21 samples.

Results

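B lymphocytes and the plasma cells that arise from them were followed in the growing lung through 36 genes that mark these cells. A gene was a member if its symbol stood in the probe annotation, and where several probe sets carried the symbol, the brightest on average over the 21 arrays was to stand for it. Of the 36, 35 were measured, among 19938 genes in all. Cd38 was not analysed here. Each measured member had a single probe set, and Fcmr and Jchain were listed under these symbols. The members were grouped by role: 4 genes of the antigen receptor and its coreceptors, 4 inhibitory receptors, 5 intracellular signalling genes, 7 transcription factors and cofactors, 4 Fc receptors and Fc receptor-like genes, 6 receptors for survival, homing and costimulation, 2 other surface and precursor genes, and 3 genes of plasma cells and antibody secretion.

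B cells recognise antigen through a membrane immunoglobulin whose signal is carried by the CD79A and CD79B chains. Coreceptors such as CR2 amplify that signal, and receptors such as CD22 and CD72 dampen it. The transcription factors EBF1 and PAX5 hold cells in the B lineage, and plasma cells, which secrete antibody, depend on XBP1. In a healthy lung, B cells sit in the blood vessels, the interstitium and occasional lymphoid clusters near airways, and plasma cells lie mainly along the airways.

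The study followed the right lung once the left had been taken out by surgery (left pneumonectomy), which makes the right lung grow. The animals were male C57BL/6 mice; their age was not given in the labels. The 7 conditions were day 0 before pneumonectomy, days 3, 7, 14, 28 and 56 after pneumonectomy, and a sham operation at day 56. Each condition had 3 arrays, 1 each from the medial lobe, the cardiac lobe and the whole right lung, and array values below are given in that order. Whether the 3 regions of a condition share mice, and whether mice were pooled, is not in the labels, so p-values measure the spread among these arrays, which may be partly technical, and their small number limits the precision. Values are log2 expression levels. A difference is a log2 difference from a model with terms for condition and region, given ± its standard error, and a gene counted as called when its p from limma, adjusted by Benjamini-Hochberg over all 19938 genes, was under 0.05. In whole tissue, fewer B cells and less RNA per B cell cannot be told apart.

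The tissue matched its label: the surfactant gene Sftpc lay between 13.2 and 13.5 on every array. The defining B cell genes gave values on every array, with Cd79b between 9.08 and 10.77 and Ms4a1 between 7.15 and 9.28; the file holds no detection calls. 2 arrays stood apart from the others of their region. A mean over 59 small RNA genes read 8.15 in the day 7 cardiac lobe, against 6.90 to 7.48 in the other cardiac arrays. The same mean read 9.84 in the day 56 pneumonectomy whole lung, against 7.77 to 9.0 in the other whole lungs. Another array, the day 0 whole lung, held Glycam1, a product of the high endothelial venules of lymph nodes, at 7.01, against 4.48 to 4.90 on the other 20. The B cell attractant Cxcl13 read 10.22 on that array and 7.64 and 8.11 in the day 0 lobes.

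Promoter sequence is shown for 3 members, to set the letters of B cell motifs beside genes whose levels are described next. The 250 bases before the transcription start were taken from RefSeq (GRCm38.p6) for 29 of the 35 members. Both strands were searched for the octamer ATGCAAAT, the motif of the POU2F2 and POU2AF1 proteins, for TCCCNNGGG, an EBF1-type motif, and for GAGGAAGT, a motif of ETS proteins such as SPIB. For each motif the matching member with the lowest day 7 difference is shown, 5′ to 3′ on the strand of the gene, with the match in capitals. Vpreb3, at chr10:75948050-75948299 on the plus strand, held the octamer at positions -45 to -38 from the start. Cd22, at chr7:30879029-30879278 on the minus strand, held the EBF1-type letters on both strands, and the capitals join both matches. Cd72, at chr4:43454627-43454876 on the minus strand, held the ETS-type letters at positions -49 to -42 from the start.
Vpreb3: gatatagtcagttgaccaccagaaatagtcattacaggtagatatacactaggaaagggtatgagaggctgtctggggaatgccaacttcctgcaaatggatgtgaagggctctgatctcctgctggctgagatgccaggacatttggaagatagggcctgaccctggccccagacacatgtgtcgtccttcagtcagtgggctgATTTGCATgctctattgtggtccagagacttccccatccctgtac
Cd22: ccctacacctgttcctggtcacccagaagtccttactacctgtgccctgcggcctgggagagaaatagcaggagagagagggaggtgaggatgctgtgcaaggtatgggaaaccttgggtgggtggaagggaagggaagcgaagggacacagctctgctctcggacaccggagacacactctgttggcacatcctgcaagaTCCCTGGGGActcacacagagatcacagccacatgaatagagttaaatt
Cd72: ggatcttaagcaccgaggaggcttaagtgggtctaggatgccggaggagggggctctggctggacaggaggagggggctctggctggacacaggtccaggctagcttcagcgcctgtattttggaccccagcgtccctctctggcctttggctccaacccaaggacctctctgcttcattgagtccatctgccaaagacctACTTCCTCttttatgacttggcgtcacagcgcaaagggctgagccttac

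The octamer occurred in 3 of the 29 members (Vpreb3, Blnk and Cnr2), or 10.3%, and in 1.81% of all genes with a promoter entry. The ETS-type motif occurred in 4 (Cd72, Fcrl1, Cd37 and Btla), or 13.8%, against 2.79% of all genes. The EBF1-type motif occurred in Cd22 alone among members, or 3.45%, against 6.45% of all genes. A match describes the letters and shows nothing of binding. Members with and without these letters were among those that fell, as the values below show.

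Most B cell members were highest before surgery and lowest at day 7. The mean over conditions was highest at day 0 for 27 of 35 members, and lowest at day 7 for 23, at day 14 for 7, at day 56 and day 56 sham for 2 each and at day 3 for 1. The mean over the 35 members was 7.80 ± 0.19 (SD, n = 3) at day 0, 7.34 ± 0.16 at day 3, 7.05 ± 0.18 at day 7, 7.14 ± 0.08 at day 14, 7.63 ± 0.28 at day 28, 7.28 ± 0.11 at day 56 and 7.34 ± 0.17 in sham. The 3 arrays of day 0 lay above every array of days 3, 7, 14 and 56 and of sham, and overlapped those of day 28. An F test over the 7 conditions called 20 members, where 7.76% of all genes were called; it called 10 without the day 0 cardiac lobe, 11 without the day 0 whole lung and 13 without the region term.

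**Figure D1:**
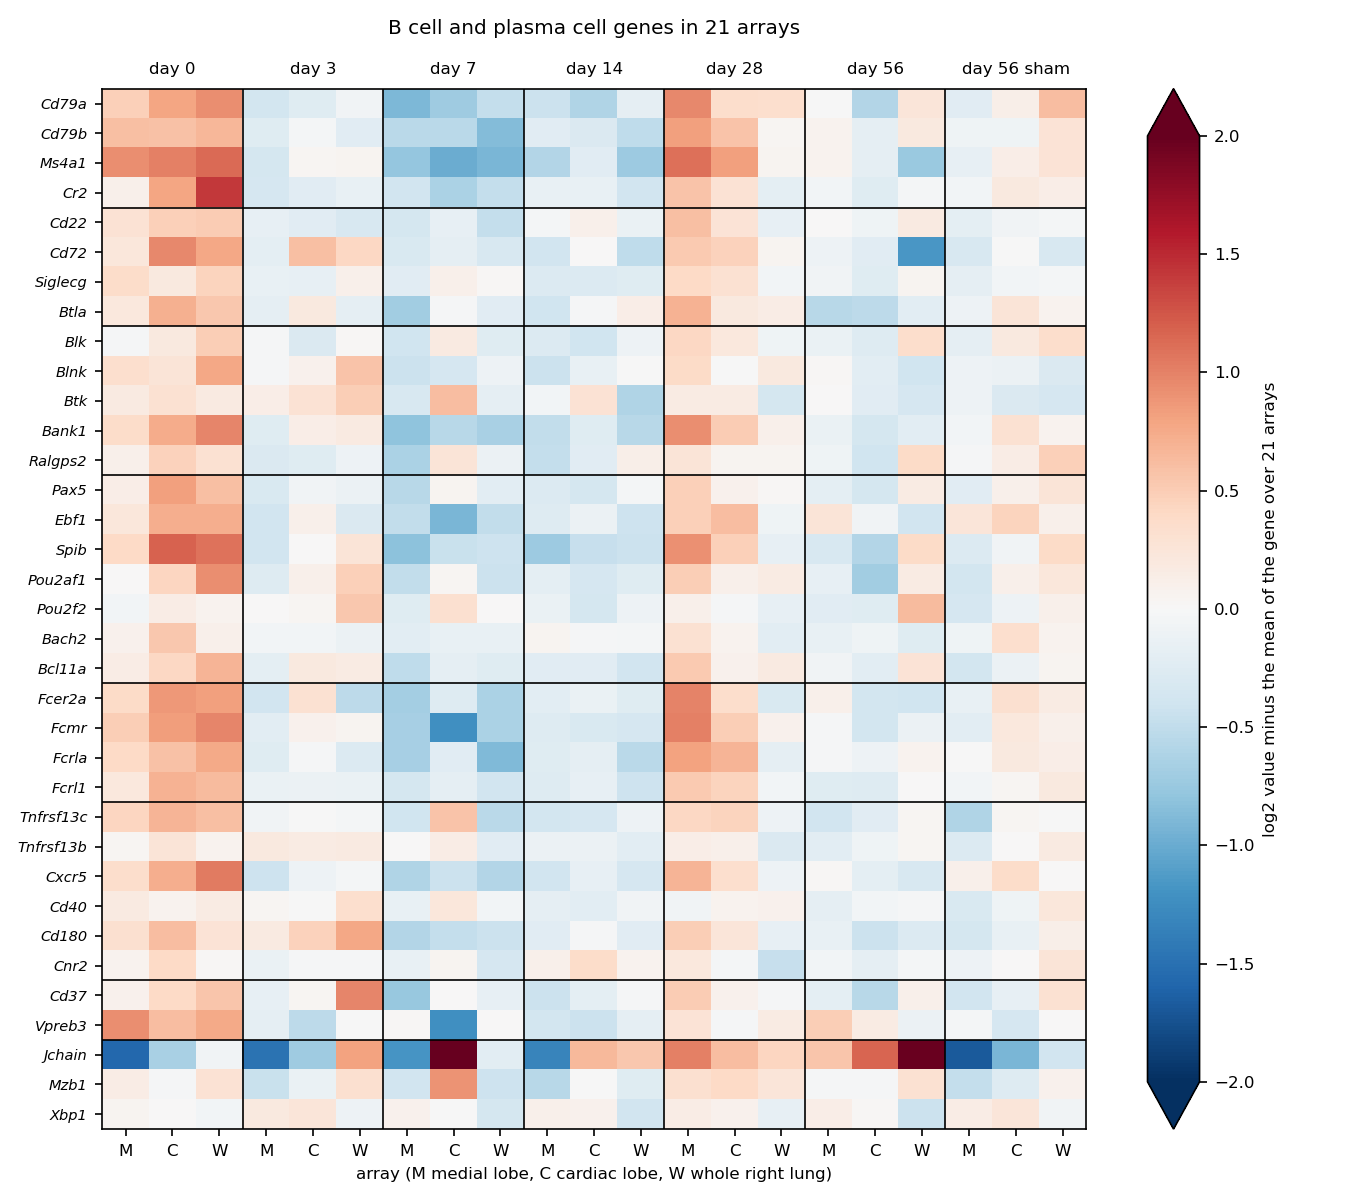
Each row is a member and each column an array, ordered by condition and then by region (M medial lobe, C cardiac lobe, W whole right lung); colour is the log2 value minus the gene's mean over 21 arrays, and lines separate conditions and roles. Most rows are red at day 0 and in the day 28 medial lobe and blue at day 7, whereas Jchain in the last role group is red in the day 7 cardiac lobe, at day 28 and at day 56.

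Against day 0, 15 of 35 members were lower at day 3 and none was higher, where 2.73% of all genes were called lower and 3.97% higher. At day 7, 21 members were lower and none higher, with 4.97% and 3.73% of all genes called lower and higher. At day 14, 13 members were lower and none higher, against 0.707% and 0.497% of all genes. The median difference over the 35 members was -0.50 at day 3, -0.75 at day 7 and -0.69 at day 14, while the median over all genes lay near 0. All 3 arrays lay below all 3 of day 0 for 21 members at day 3, 23 at day 7 and 29 at day 14, where 12.1%, 12.3% and 7.1% of all genes did so. No member lay wholly above day 0 on these days, where 15.4%, 17.2% and 8.18% of all genes did. These counts depended on which day 0 array was kept. Without the day 0 whole lung, which held the Glycam1 signal, 2 members were lower at day 3, 14 at day 7 and 5 at day 14, and without the day 0 cardiac lobe 6, 17 and 3. At day 3 the count was also 7 without the day 3 medial lobe, 8 without the cardiac lobe and 7 without the whole lung of that day, 9 without the region term and 4 in the medial and cardiac lobes alone. At day 14 it was 5 without the day 14 medial lobe, 8 without the cardiac lobe and 5 without the whole lung, and 3 in both lobes alone. With each of the 6 arrays left out in turn, 14 members were called in every day 7 fit, Cd79b, Ms4a1 and Bank1 in every day 14 fit and Vpreb3 alone in every day 3 fit. Fits without an array have fewer arrays in a group, and the share of all genes called in them is not given here. A lower count in such a fit therefore cannot be read as particular to the members or to the array left out.

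All 4 genes of the antigen receptor and its coreceptors fell at days 3 and 7. Ms4a1 encodes CD20, a B cell surface protein, and showed the lowest day 7 difference of the members. Its values were 9.07, 9.15 and 9.28 at day 0, 7.80, 8.18 and 8.20 at day 3, 7.37, 7.15 and 7.22 at day 7, and 7.55, 7.92 and 7.42 at day 14. They were 9.25, 8.96 and 8.20 at day 28, 8.21, 7.96 and 7.41 at day 56, and 7.98, 8.27 and 8.42 in sham. The day 0 arrays exceeded every array of days 3, 7, 14 and 56 and of sham, and the day 7 arrays lay below those of day 3 and of sham. Against day 0 the difference was -1.11 ± 0.23 at day 3 (adjusted p = 0.0074), -1.92 ± 0.23 at day 7 (adjusted p = 0.000499), a 3.78-fold lower level, and -1.53 ± 0.23 at day 14 (adjusted p = 0.00349).

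Cd79a, a signalling chain of the antigen receptor, read 9.27, 9.59 and 9.72 at day 0, 8.43, 8.55 and 8.72 at day 3, 7.90, 8.08 and 8.33 at day 7, and 8.36, 8.20 and 8.62 at day 14. It read 9.76, 9.14 and 9.14 at day 28, 8.78, 8.20 and 9.04 at day 56, and 8.57, 8.91 and 9.41 in sham. Day 0 did not overlap days 3, 7 and 14, and overlapped day 28 and sham. The Cd79a difference was -0.96 ± 0.20 at day 3 (adjusted p = 0.00791), -1.43 ± 0.20 at day 7 (adjusted p = 0.00108) and -1.13 ± 0.20 at day 14 (adjusted p = 0.00875). Its partner chain Cd79b read 10.55, 10.53 and 10.61 at day 0, 9.71, 9.91 and 9.73 at day 3, 9.40, 9.41 and 9.08 at day 7, and 9.72, 9.65 and 9.44 at day 14. In the later groups Cd79b read 10.77, 10.52 and 9.99 at day 28, 10.02, 9.76 and 10.15 at day 56, and 9.86, 9.86 and 10.23 in sham. The day 0 arrays of Cd79b spanned less than 0.1, and its day 7 arrays lay below all others of the study. The Cd79b difference was -0.78 ± 0.16 at day 3 (adjusted p = 0.00853) and -1.26 ± 0.16 at day 7 (adjusted p = 0.00078).

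Cr2 encodes complement receptor CD21, abundant on mature and marginal zone B cells and on follicular dendritic cells. It read 5.31, 5.99 and 6.63 at day 0, 4.87, 4.98 and 5.06 at day 3, 4.82, 4.58 and 4.73 at day 7, and 5.07, 5.06 and 4.83 at day 14. Later values were 5.78, 5.50 and 5.02 at day 28, 5.16, 4.97 and 5.17 at day 56, and 5.16, 5.40 and 5.34 in sham. The gene was dim, and its day 0 whole lung, the array with Glycam1 signal, was the highest of all 21. The Cr2 difference was -1.01 ± 0.24 at day 3 (adjusted p = 0.0177), -1.27 ± 0.24 at day 7 (adjusted p = 0.00652) and -0.99 ± 0.24 at day 14 (adjusted p = 0.0579).

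**Figure D2:**
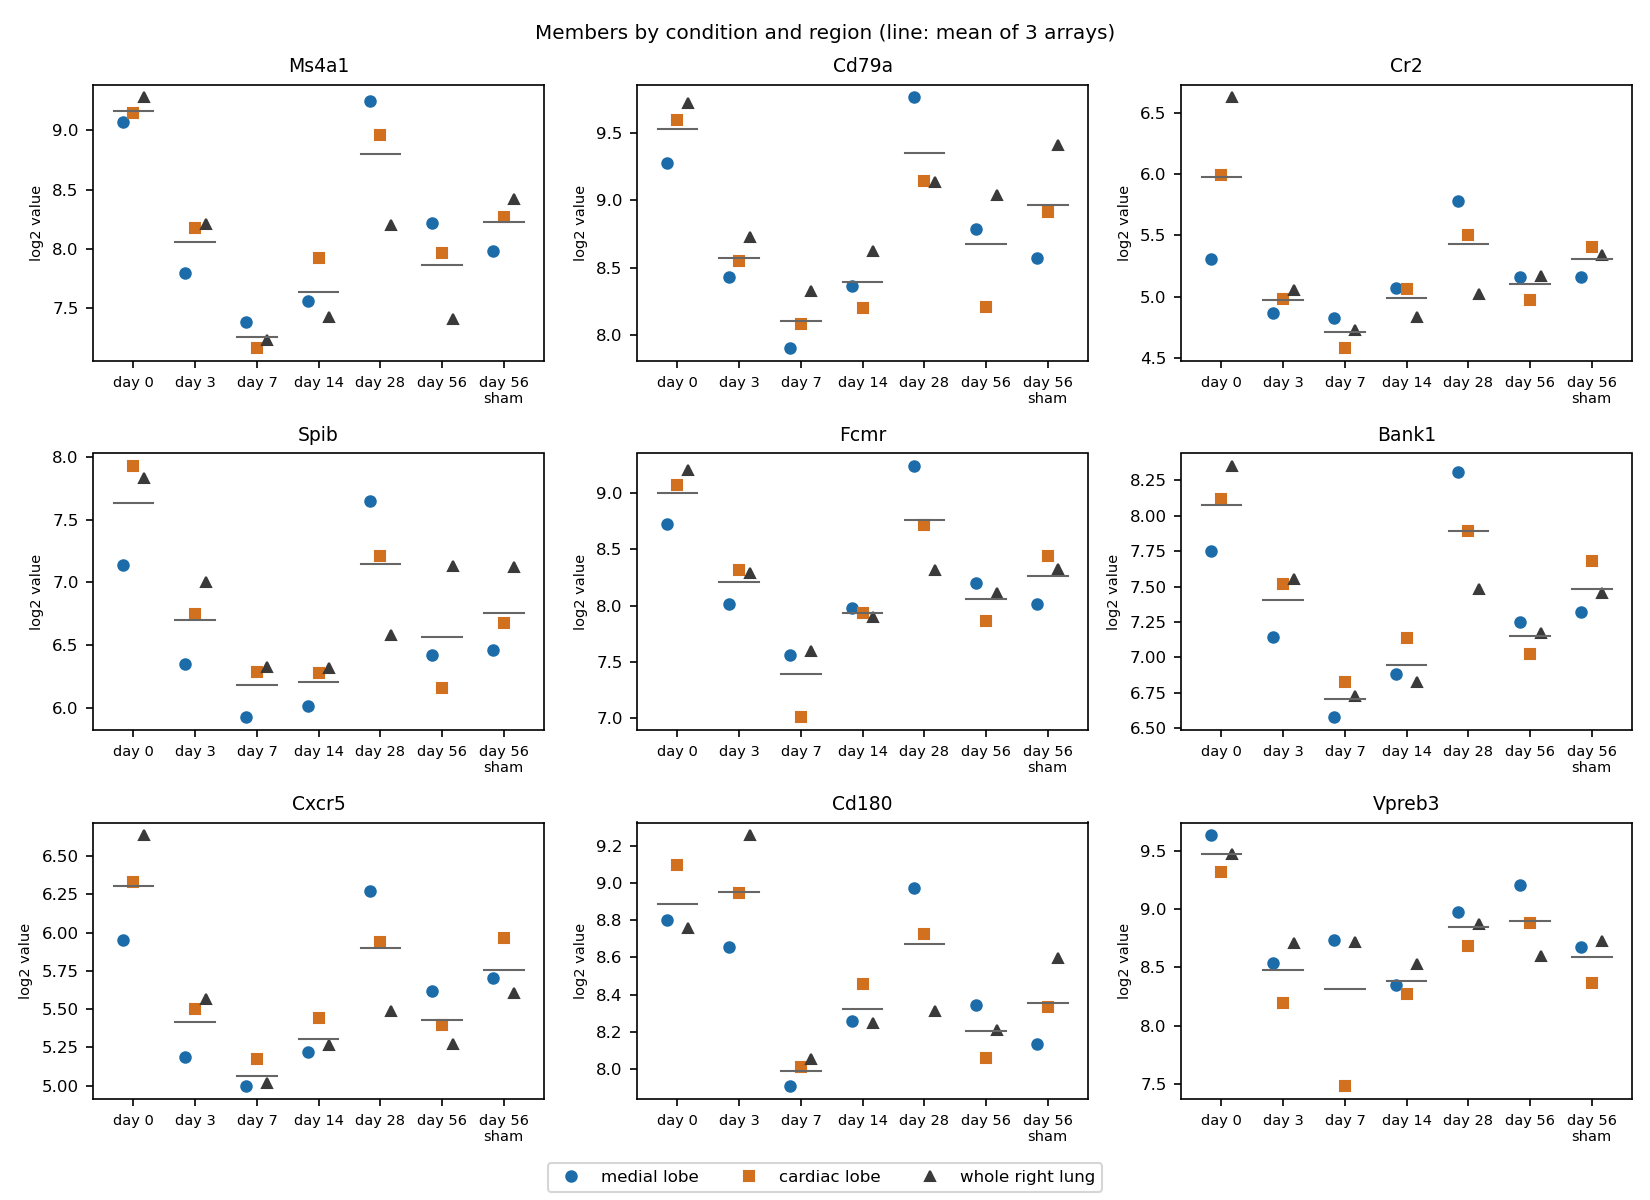
Each panel plots the log2 value (y axis, scaled per gene) of a member by condition, with a point per array, shaped and coloured by region, and a line at the mean of the 3 arrays. The day 0 means are the highest except for Cd180, which stays high at day 3, and the day 28 medial lobe stands above the day 0 medial lobe except for Vpreb3.

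Inhibitory receptors fell at day 7 in 3 of 4 cases. CD22, which binds sialic acid and restrains receptor signalling, is encoded by Cd22, which read 8.50, 8.68 and 8.72 at day 0 against 7.87, 8.05 and 7.73 at day 7, a difference of -0.75 ± 0.14 (adjusted p = 0.00678). Cd72 was lower by -0.92 ± 0.22 (adjusted p = 0.0204) and Btla, whose product also restrains T cells, by -0.81 ± 0.18 (adjusted p = 0.0131). Siglecg, a relative of Cd22, had -0.36 ± 0.12 at day 7 (adjusted p = 0.0739) and was called at day 14, at -0.59 ± 0.12 (adjusted p = 0.0223). At day 3, Cd22 was the member of this group that was called.

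Among 5 signalling genes, 1 fell at day 3 (Bank1), 2 at day 7 (Bank1 and Blnk) and 1 at day 14 (Bank1). Bank1, an adapter of antigen receptor signalling, read 7.75, 8.12 and 8.35 at day 0, 7.14, 7.52 and 7.55 at day 3, 6.58, 6.82 and 6.73 at day 7, and 6.88, 7.13 and 6.83 at day 14. It then read 8.31, 7.89 and 7.48 at day 28, 7.25, 7.02 and 7.17 at day 56, and 7.32, 7.68 and 7.45 in sham. The day 7 arrays of Bank1 were the lowest group and overlapped none of days 0, 3 and 28 or sham. The Bank1 differences were -0.67 ± 0.18 at day 3 (adjusted p = 0.0394), -1.37 ± 0.18 at day 7 (adjusted p = 0.000999) and -1.13 ± 0.18 at day 14 (adjusted p = 0.00586). Blnk, the linker between the receptor and its kinases, had -0.74 ± 0.16 at day 7 (adjusted p = 0.0146). Btk, the kinase downstream, which is also made by myeloid cells, had 0.09 at day 3 and -0.18 at day 7 and was not called; neither were Blk, a Src-family kinase, at -0.38 and Ralgps2, a Ral activator, at -0.46 at day 7.

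Of 7 transcription factors and cofactors, 3 fell at day 3, 5 at day 7 and 2 at day 14. Ebf1, a founding factor of the lineage that stromal cells also make, read 8.01, 8.51 and 8.52 at day 0, 7.40, 7.89 and 7.49 at day 3, 7.30, 6.88 and 7.30 at day 7, and 7.54, 7.67 and 7.37 at day 14. It read 8.27, 8.41 and 7.70 at day 28, 8.04, 7.72 and 7.41 at day 56, and 8.03, 8.23 and 7.88 in sham. The day 7 values lay below every array of the other conditions. Ebf1 differed from day 0 by -0.75 ± 0.19 at day 3 (adjusted p = 0.0284) and -1.19 ± 0.19 at day 7 (adjusted p = 0.00252).

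Pax5, which keeps B cell identity, read 7.36, 8.06 and 7.83 at day 0, 6.92, 7.17 and 7.12 at day 3, 6.68, 7.28 and 7.02 at day 7, and 6.96, 6.88 and 7.19 at day 14. It read 7.72, 7.32 and 7.25 at day 28, 7.03, 6.88 and 7.39 at day 56, and 7.01, 7.33 and 7.50 in sham. Day 0 stood above days 3, 7 and 14 without overlap and overlapped day 28, day 56 and sham. The Pax5 difference was -0.68 ± 0.18 at day 3 (adjusted p = 0.0322) and -0.76 ± 0.18 at day 7 (adjusted p = 0.0199). Spib, an ETS factor of B cells and plasmacytoid dendritic cells, read 7.14, 7.93 and 7.83 at day 0, 6.35, 6.75 and 7.00 at day 3, 5.93, 6.29 and 6.33 at day 7, and 6.01, 6.28 and 6.32 at day 14. Later Spib values were 7.65, 7.21 and 6.58 at day 28, 6.42, 6.16 and 7.13 at day 56, and 6.46, 6.68 and 7.13 in sham. Days 7 and 14 were alike in level for Spib, and both lay wholly below day 0. Spib differed from day 0 by -0.93 ± 0.27 at day 3 (adjusted p = 0.0489), -1.45 ± 0.27 at day 7 (adjusted p = 0.00562) and -1.43 ± 0.27 at day 14 (adjusted p = 0.013). Bcl11a, needed for early B cells, had -0.73 ± 0.15 at day 7 (adjusted p = 0.0111), and Bach2, a repressor of the plasma cell programme, -0.41 ± 0.12 (adjusted p = 0.045). The octamer proteins' genes were not called at day 7, with Pou2af1 at -0.75 and Pou2f2 at -0.02.

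The 4 Fc receptor and Fc receptor-like genes fell at days 3 and 7. Fcmr, the receptor for the Fc part of IgM, read 8.72, 9.07 and 9.21 at day 0, 8.02, 8.32 and 8.29 at day 3, 7.56, 7.01 and 7.60 at day 7, and 7.98, 7.93 and 7.90 at day 14. It read 9.24, 8.72 and 8.32 at day 28, 8.20, 7.86 and 8.11 at day 56, and 8.02, 8.44 and 8.33 in sham. The day 7 arrays were lower than those of every other condition. Fcmr differed by -0.79 ± 0.21 at day 3 (adjusted p = 0.0324), by -1.61 ± 0.21 at day 7 (adjusted p = 0.00078), a 3.05-fold lower level, and by -1.06 ± 0.21 at day 14 (adjusted p = 0.0174).

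Fcer2a encodes CD23, the low-affinity IgE receptor of mature B cells. It read 7.78, 8.26 and 8.22 at day 0, 7.01, 7.70 and 6.87 at day 3, 6.72, 7.14 and 6.76 at day 7, and 7.18, 7.26 and 7.15 at day 14. It read 8.38, 7.75 and 7.09 at day 28, 7.49, 7.03 and 6.99 at day 56, and 7.25, 7.72 and 7.56 in sham, so that day 28 overlapped both day 0 and day 7. The Fcer2a difference was -0.90 ± 0.25 at day 3 (adjusted p = 0.0418) and -1.22 ± 0.25 at day 7 (adjusted p = 0.0101). Fcrla, an intracellular Fc receptor-like protein, read 7.16, 7.35 and 7.52 at day 0, 6.52, 6.74 and 6.50 at day 3, 6.10, 6.54 and 5.88 at day 7, and 6.52, 6.58 and 6.23 at day 14. Fcrla read 7.57, 7.46 and 6.59 at day 28, 6.74, 6.66 and 6.84 at day 56, and 6.76, 6.96 and 6.90 in sham. Its day 0 arrays stood above every array of days 3, 7, 14, 56 and sham. Fcrla differed by -0.76 ± 0.19 at day 3 (adjusted p = 0.0227) and by -1.17 ± 0.19 at day 7 (adjusted p = 0.00228). Fcrl1, a surface relative, read 6.34, 6.82 and 6.76 at day 0, 6.00, 6.02 and 6.00 at day 3, 5.79, 5.96 and 5.76 at day 7, and 5.87, 5.97 and 5.73 at day 14. Its later values were 6.66, 6.58 and 6.08 at day 28, 5.89, 5.87 and 6.14 at day 56, and 6.08, 6.17 and 6.33 in sham, all sham arrays below all of day 0. Fcrl1 was lower by -0.64 ± 0.14 at day 3 (adjusted p = 0.0122) and -0.81 ± 0.14 at day 7 (adjusted p = 0.00424).

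Receptors for survival, homing and costimulation were mixed, with 1 of 6 lower at day 3 (Cxcr5), 2 at day 7 (Cxcr5 and Cd180) and 1 at day 14 (Cxcr5). Cxcr5, the receptor that guides B cells to Cxcl13, read 5.95, 6.33 and 6.64 at day 0, 5.18, 5.50 and 5.56 at day 3, 4.99, 5.17 and 5.02 at day 7, and 5.22, 5.44 and 5.26 at day 14. It read 6.27, 5.94 and 5.49 at day 28, 5.62, 5.40 and 5.27 at day 56, and 5.70, 5.96 and 5.61 in sham. The day 7 arrays lay below every array of the other conditions. Cxcr5 differed by -0.89 ± 0.18 at day 3 (adjusted p = 0.00755), -1.24 ± 0.18 at day 7 (adjusted p = 0.00136) and -1.0 ± 0.18 at day 14 (adjusted p = 0.0113). Its ligand Cxcl13 stood at 10.37, 9.83 and 11.51 at day 3 against 7.64, 8.11 and 10.22 at day 0, a difference of 1.91 ± 0.61 that was not called (adjusted p = 0.0746).

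Cd180, a Toll-like receptor relative on B cells that macrophages and dendritic cells also carry, took another course. It read 8.80, 9.10 and 8.76 at day 0, 8.66, 8.95 and 9.26 at day 3, 7.90, 8.01 and 8.05 at day 7, and 8.25, 8.46 and 8.25 at day 14. It read 8.98, 8.73 and 8.31 at day 28, 8.34, 8.06 and 8.21 at day 56, and 8.13, 8.33 and 8.60 in sham. Days 0 and 3 overlapped, and all day 7 arrays lay below all others of the study. The Cd180 difference from day 0 was 0.07 ± 0.17 at day 3 (adjusted p = 0.881) and -0.90 ± 0.17 at day 7 (adjusted p = 0.00719); from day 3 to day 7 it was -0.97 ± 0.17 (adjusted p = 0.0526), which was not called. Tnfrsf13c, the BAFF receptor, had -0.61 at day 3 and -0.69 at day 7, Tnfrsf13b (TACI) 0.06 and -0.15, Cd40 -0.01 and -0.13, and the cannabinoid receptor gene Cnr2 -0.22 and -0.30; none of these was called.

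Vpreb3, a partner of immunoglobulin chains during B cell maturation, read 9.64, 9.32 and 9.47 at day 0, 8.53, 8.19 and 8.71 at day 3, 8.73, 7.48 and 8.72 at day 7, and 8.35, 8.28 and 8.53 at day 14. It read 8.98, 8.68 and 8.87 at day 28, 9.21, 8.88 and 8.60 at day 56, and 8.68, 8.37 and 8.72 in sham. All 18 later arrays lay below the 3 of day 0, and the day 7 cardiac lobe, an array that stood apart, was the lowest. Vpreb3 differed from day 0 by -1.0 ± 0.20 at day 3 (adjusted p = 0.00618), -1.17 ± 0.20 at day 7 (adjusted p = 0.00358) and -1.09 ± 0.20 at day 14 (adjusted p = 0.0108). The tetraspanin gene Cd37 had -0.06 ± 0.23 at day 3 and -0.64 ± 0.23 at day 7 (adjusted p = 0.0858).

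With day 56 sham as control in place of day 0, fewer members passed. At day 3 no member was lower, where 3.21% of all genes were called lower, and Cd180 was higher, where 4.46% were called higher. Its difference was 0.60 ± 0.17 (adjusted p = 0.0437), and the call was lost when the region term was dropped, in both lobes alone, and when the sham medial, sham cardiac, day 3 cardiac or day 3 whole lung array was left out. The day 3 arrays lay wholly below sham for 5 members and wholly above for 3 (Blnk, Btk and Cd180), where 9.31% and 10.3% of all genes did so. At day 7, 8 members were lower and none higher, with 2.15% of all genes called lower and 2.37% higher. The 8 were Cd79a at -0.86 ± 0.20 (adjusted p = 0.0232), Cd79b at -0.68 ± 0.16 (adjusted p = 0.0271), Ms4a1 at -0.97 ± 0.23 (adjusted p = 0.0242), Bank1 at -0.78 ± 0.18 (adjusted p = 0.0253), Ebf1 at -0.89 ± 0.19 (adjusted p = 0.0155), Fcmr at -0.87 ± 0.21 (adjusted p = 0.0278), Fcrla at -0.70 ± 0.19 (adjusted p = 0.0456) and Cxcr5 at -0.69 ± 0.18 (adjusted p = 0.0434). They included 3 of the 4 receptor genes, 2 of the 4 Fc receptor genes and none of the 4 inhibitory receptors. All day 7 arrays lay below all sham arrays for 14 members, where 7.08% of genes did so, and above for none, where 7.32% did. The call depended on single arrays: 0 members were called without the sham cardiac lobe or without the sham whole lung, 5 without the sham medial lobe, 3 without the day 7 medial lobe, 2 without the day 7 cardiac lobe and 5 without the day 7 whole lung. It stood at 5 without the region term, 4 in both lobes alone and 3 without both arrays that stood apart. The share of all genes called is not given for these fits either, so the lower counts cannot be read as particular to the members. At day 14, 0 of 35 members were called by limma against sham, where 0.0652% of all genes were called; 9 members and 5.42% of all genes had an unadjusted p under 0.05. The day 14 arrays lay wholly below sham for 11 members and above for none, where 3.33% of all genes lay below and 3.33% above.

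**Figure D3:**
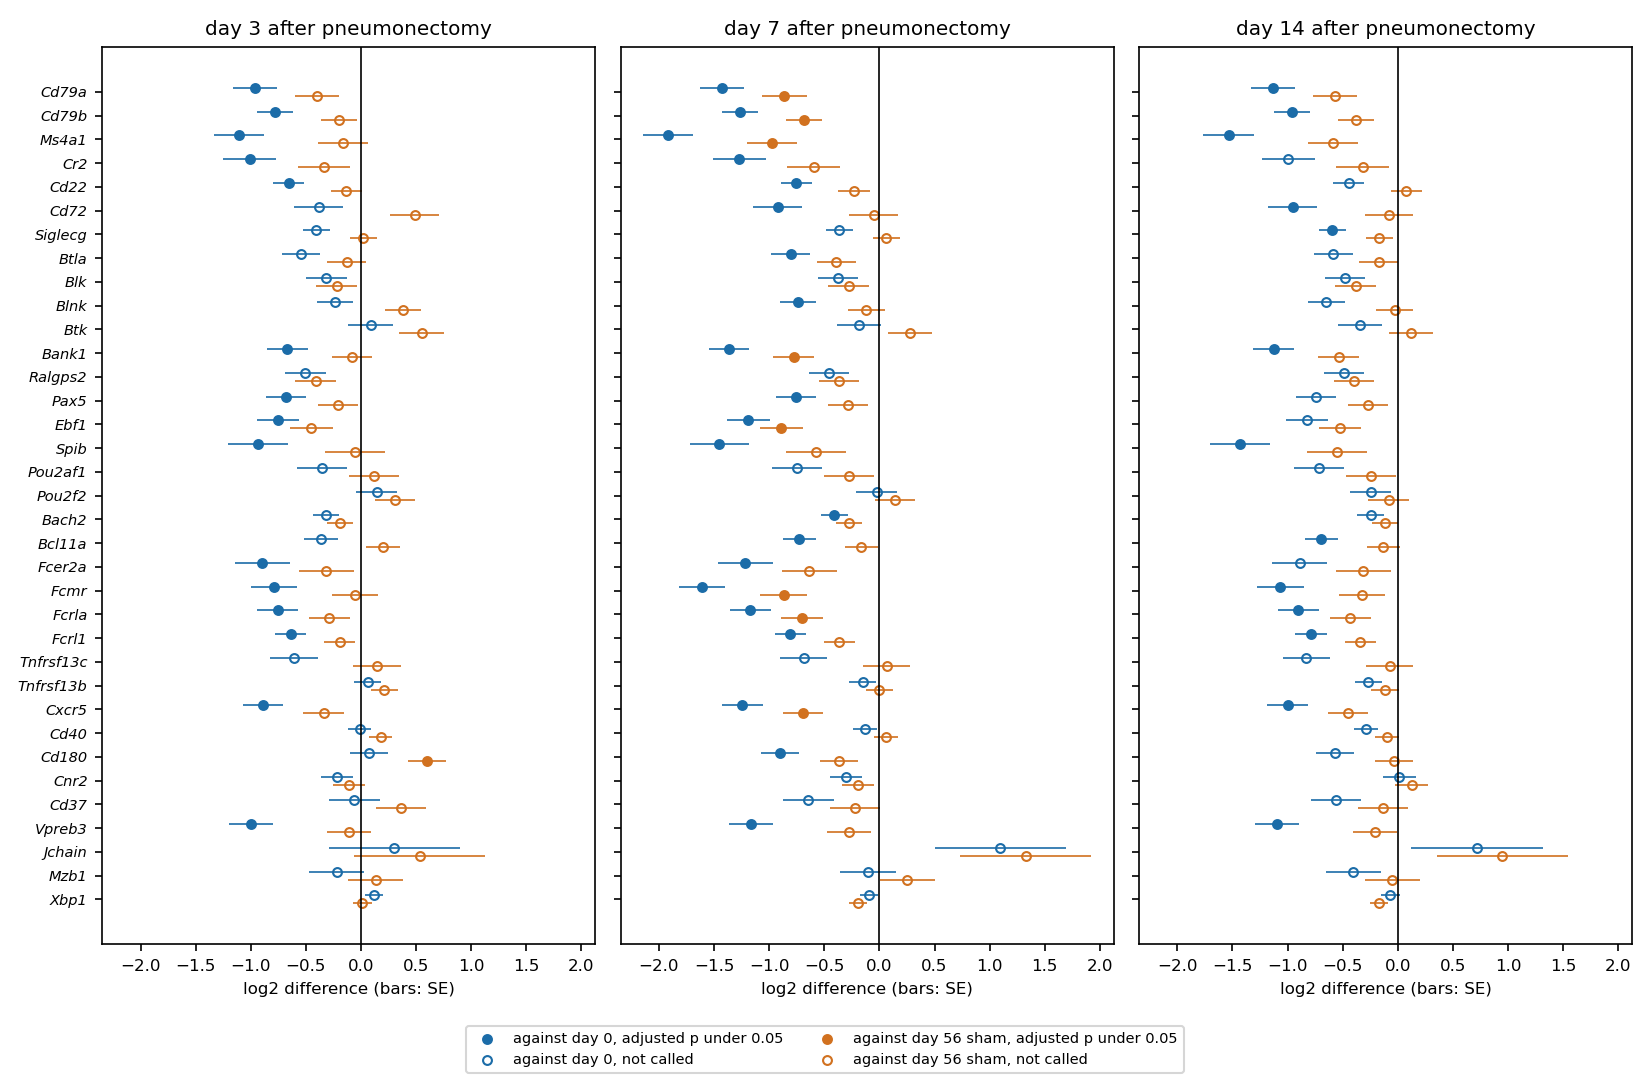
Each row is a member and each point its log2 difference (x axis, bars are the standard error) at day 3, 7 or 14, in blue against day 0 and in orange against day 56 sham; filled points have a limma adjusted p under 0.05. Filled blue points lie left of 0 in all panels, filled orange points lie left of 0 at day 7, and the filled orange point at day 3 is Cd180, right of 0.

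Sham animals themselves lay below day 0. At day 56 after sham, 34 of 35 members had a difference below 0, with a median of -0.47, though 0 members were called by limma, where 0.381% of all genes were called. Of the members, 22 had an unadjusted p under 0.05, against 9.31% of all genes, and 17 had all sham arrays below all day 0 arrays, against 6.84%. Vpreb3 differed by -0.89 ± 0.20 (adjusted p = 0.0745) and Ms4a1 by -0.95 ± 0.23 (adjusted p = 0.0981). With both arrays that stood apart left out, 5 members were lower in sham: Ms4a1, Cd72, Blnk, Tnfrsf13c and Vpreb3. That fit was added after seeing the data. The share of all genes called in it is not given here, so the 5 calls cannot be read as particular to the members. Sham and day 0 differ in surgery and in time, which cannot be told apart here.

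Later days after pneumonectomy were split by region at day 28. Against day 0, 0 members were called at day 28 by limma, as were 0% of all genes; 4 members had an unadjusted p under 0.05, against 7.22% of all genes. Day 28 lay wholly below day 0 for Btk and Vpreb3, against 5.54% of all genes. Within the medial lobe, 4 of 35 members were lower at day 28 than at day 0, with a median difference of 0.30. Within the cardiac lobe 28 were lower, with a median of -0.25, and within the whole lung 34 were lower, with a median of -0.58. Ms4a1 at day 28 read 9.25 in the medial lobe, above the day 0 medial lobe at 9.07, and 8.20 in the whole lung, below the day 0 whole lung at 9.28. Each of these is 1 array against 1 array, with no test. Against sham, 0 members were called at day 28 (0.186% of all genes), 11 had an unadjusted p under 0.05 against 7.64% of all genes, and the median difference was 0.27. Cd72, Blnk, Bcl11a, Jchain and Mzb1 lay wholly above sham at day 28, where 4.26% of all genes did, and no member wholly below, where 5.37% did. In the lobes alone 1 member was called higher than in sham, in a fit whose share of all genes called is not given here.

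At day 56 after pneumonectomy, Ms4a1 was the sole member called against day 0, at -1.31 ± 0.23 (adjusted p = 0.0421), where 0.0853% of all genes were called lower and 0.00502% higher. No member was called without the region term, in both lobes alone, without both arrays that stood apart, or without the day 0 cardiac lobe, the day 0 whole lung, the day 56 cardiac lobe or the day 56 whole lung; 2 were called without the day 56 medial lobe. All 3 day 56 arrays lay below day 0 for 24 members, against 6.43% of all genes, and the median difference was -0.60. Between day 56 pneumonectomy and day 56 sham, 0 members were called (0.336% of all genes), 4 had an unadjusted p under 0.05 against 8.18% of all genes, and the median difference was -0.15. All arrays lay below sham for 3 members, against 4.29% of all genes, and above for Jchain, against 2.94%. Ms4a1 differed by -0.36 ± 0.23 (adjusted p = 0.718) and Cd79b by -0.01 ± 0.16 (adjusted p = 0.996) in that comparison.

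From day 3 to day 7, 0 members were called, as were 0.0652% of all genes; 13 members had an unadjusted p under 0.05, against 10.4% of all genes, and the 14 members whose day 7 arrays lay wholly below day 3 compare with 5.93% of all genes; none lay above, against 5.19%. From day 7 to day 14, 0 members were called (0.727% of all genes), 3 had an unadjusted p under 0.05 against 12.5%, and 12 had all day 14 arrays above all day 7 arrays, against 4.13% of all genes; 1 lay below, against 6.9%.

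Differences between regions over all conditions were tested as well. Between the cardiac and the medial lobe 0 members were called (0.0903% of all genes) and 5 had an unadjusted p under 0.05, against 9.42% of all genes. Between the mean of both lobes and the whole lung 2 members were called, where 8.79% of all genes were lower and 20.3% higher in the lobes. Cd37 was lower in the lobes, at -0.37 ± 0.13 (adjusted p = 0.0439), and Xbp1 higher, at 0.33 ± 0.05 (adjusted p = 0.000231). The small RNA mean ran from 7.77 to 9.84 in the whole lung arrays and from 6.90 to 8.15 in the lobes. Tissue region cannot be told apart here from a technical difference between these sets of arrays. The count was 5 without both arrays that stood apart, 8 without the day 7 cardiac lobe alone, and 4 with each array centred on its median, of which 3 were lower and 1 higher in the lobes. The early response, meaning days 3 and 7 after pneumonectomy set against day 0 and day 56 sham, was compared between regions. Between the cardiac and the medial lobe 0 members were called (smallest adjusted p = 0.964, Bach2 alone with an unadjusted p under 0.05). Between the whole lung and the lobes 0 members were called as well (smallest adjusted p = 0.996, 0 with an unadjusted p under 0.05). No gene at all, 0% of 19938, was called in either of these contrasts, so the counts say nothing particular about the members.

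Of the 3 antibody secretion genes, none was called in any comparison of conditions, and their course was not tested against that of the other members. Jchain joins the units of polymeric IgM and IgA and marks plasma cells. It read 6.38, 7.31 and 7.87 at day 0, 6.48, 7.24 and 8.75 at day 3, 6.77, 10.34 and 7.74 at day 7, and 6.63, 8.60 and 8.49 at day 14. It read 8.96, 8.58 and 8.38 at day 28, 8.51, 9.12 and 9.93 at day 56, and 6.27, 7.04 and 7.57 in sham. All arrays of days 28 and 56 lay above all of day 0 and of sham, while days 3, 7 and 14 overlapped both controls. Jchain was the member above day 0 on all arrays at day 28 and at day 56, where 9.54% and 7.43% of all genes were. At day 56 its difference was 2.0 ± 0.60 against day 0 (adjusted p = 0.242) and 2.23 ± 0.60 against sham (adjusted p = 0.204), a 4.69-fold higher level that did not pass, with unadjusted p of 0.00411 and 0.00184. Without both arrays that stood apart, 1 of which is the day 56 whole lung, the difference from sham was 2.13 (adjusted p = 0.0496). The 3 measured immunoglobulin genes did not share this course. Their mean was 6.51 ± 0.27 (SD, n = 3) at day 0, 6.37 ± 0.365 at day 28, 6.17 ± 0.38 at day 56 and 6.14 ± 0.10 in sham. At day 56, 2 of the 3 were below day 0, with a median difference of -0.42.

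The highest Jchain value of the study, 10.34, came from the day 7 cardiac lobe, the other array that stood apart. On that array Ighm, the constant region of IgM, read 9.15, against 6.32 to 7.22 on the other 20 arrays, and Igha, that of IgA, read 8.74, against 6.44 to 8.41. Tnfrsf17, the plasma cell receptor BCMA, read 5.62 there, against 4.68 to 5.35 elsewhere. Mzb1, a chaperone of antibody secretion in plasma and marginal zone B cells, read 7.45 there. These 5 genes were thus highest in the same array, which also held the highest small RNA mean of the cardiac lobes. The part of either in the other was not tested. Ighg3, the other measured immunoglobulin gene, differed at day 7 from day 0 by -0.36 ± 0.14 (adjusted p = 0.115). The plasma cell marker Derl3 differed by 0.34 ± 0.14 (adjusted p = 0.12). Neither is given here for that array alone, so the 5 genes stand for a part of these lists and not the whole. Xbp1 was not highest on that array. The mean over the 16 germinal centre and plasma cell differentiation genes read 7.827 there, against 7.815 in the day 14 cardiac lobe and 7.764 in the day 0 cardiac lobe. In the day 7 medial lobe and whole lung Igha read 6.83 and 6.44.

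Mzb1 read 6.71, 6.54 and 6.85 at day 0, 6.12, 6.43 and 6.88 at day 3, 6.18, 7.45 and 6.14 at day 7, and 6.01, 6.55 and 6.31 at day 14. It read 6.88, 6.96 and 6.81 at day 28, 6.54, 6.54 and 6.87 at day 56, and 6.08, 6.30 and 6.64 in sham. Within the medial lobe and within the whole lung, Mzb1 was lower at day 7 than at day 0, by differences of -0.52 and -0.71, and the cardiac lobe array of day 7, which stood apart, was the highest of the 21. The Mzb1 arrays of day 28 were all above the sham arrays, by 0.54 ± 0.25 (adjusted p = 0.635). Xbp1, a factor of the unfolded protein response that lung secretory cells also need, read 11.40, 11.35 and 11.29 at day 0, 11.54, 11.59 and 11.25 at day 3, 11.43, 11.33 and 10.99 at day 7, and 11.44, 11.43 and 10.96 at day 14. Xbp1 read 11.49, 11.42 and 11.18 at day 28, 11.48, 11.37 and 10.91 at day 56, and 11.49, 11.59 and 11.27 in sham. Its whole lung value was the lowest of every condition, and its conditions overlapped.

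**Figure D4:**
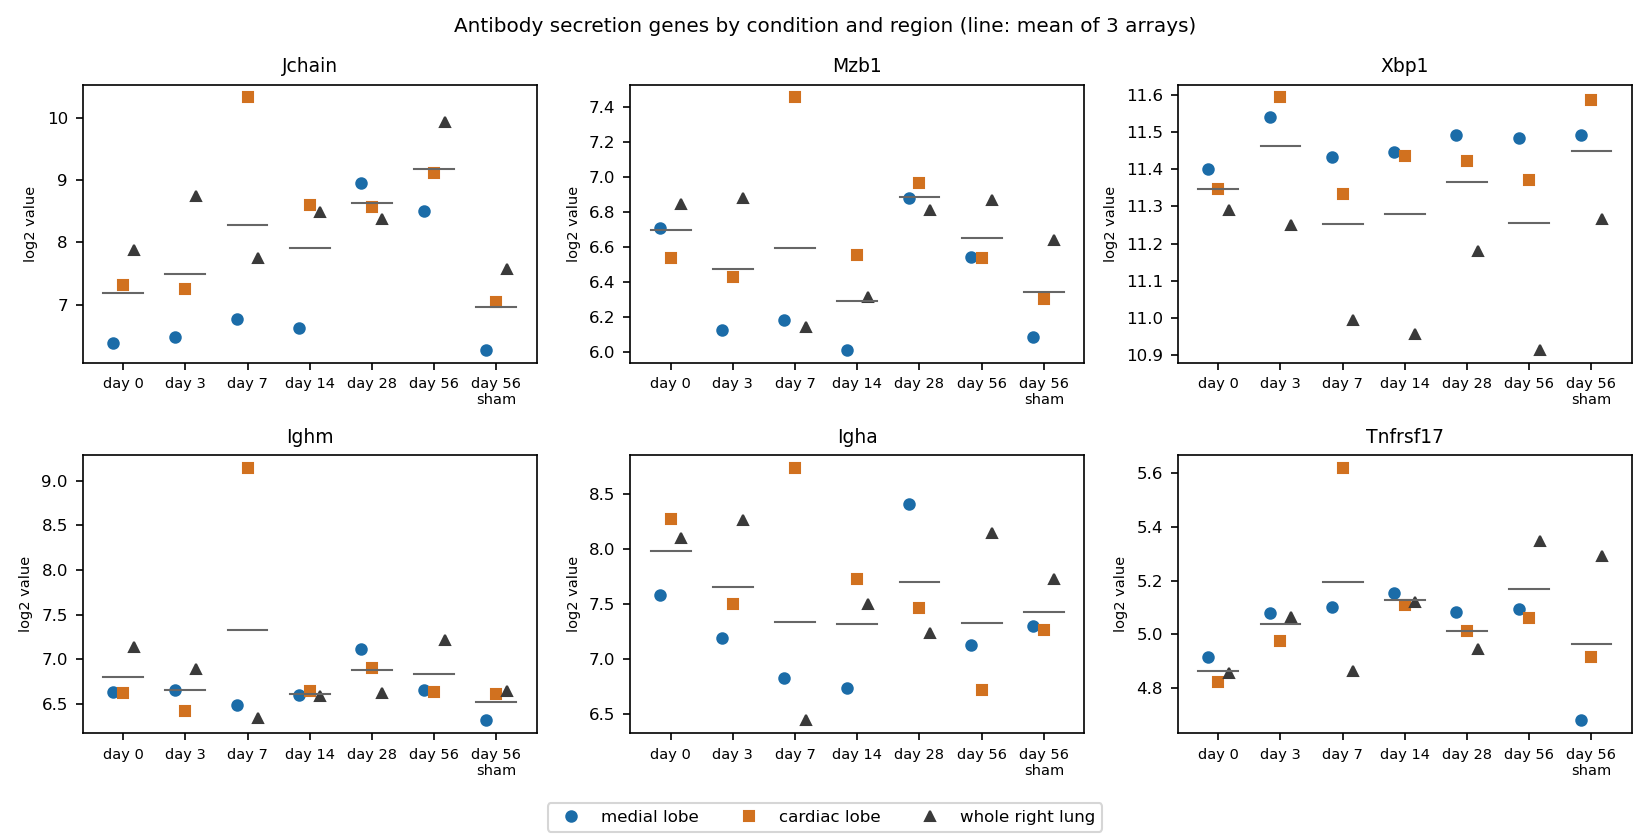
Each panel plots the log2 value (y axis, scaled per gene) of an antibody secretion gene by condition, with a point per array, shaped and coloured by region, and a line at the mean of the 3 arrays. The day 7 cardiac lobe is the highest point for Jchain (10.34), Mzb1 (7.45), Ighm (9.15), Igha (8.74) and Tnfrsf17 (5.62), and not for Xbp1.

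Other genes of B cell biology were counted against both controls, and the shares of all genes called are those given above, 2.73% lower and 3.97% higher at day 3 and 4.97% lower and 3.73% higher at day 7 against day 0. Of 20 further antigen receptor signalling genes, 1 was higher at day 3 against day 0: Fcgr2b, the inhibitory Fc receptor that macrophages also carry, at 1.12 ± 0.24 (adjusted p = 0.00911). At day 7, 2 of the 20 were lower, Pik3ap1 at -0.42 ± 0.08 (adjusted p = 0.00789) and Ptprc, the CD45 phosphatase of all leukocytes, at -0.58 ± 0.17 (adjusted p = 0.0457). Of 17 survival factors, attractants and their receptors, 2 were called at day 3: Ccr7, which leads lymphocytes to lymph nodes, was lower at -1.05 ± 0.19 (adjusted p = 0.00339), and the chemokine Cxcl12 was higher at 0.45 ± 0.11 (adjusted p = 0.026). At day 7 Ccr7 alone was called, at -0.88 ± 0.19 (adjusted p = 0.013). Of 16 germinal centre and plasma cell differentiation genes 0 were called at day 3 and 1 at day 7, Gcsam at -0.39 ± 0.09 (adjusted p = 0.0218). None of the 3 immunoglobulin genes and none of the 7 precursor genes was called at either day.

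Against sham, where 3.21% of all genes were lower and 4.46% higher at day 3, 2 of the 20 signalling genes were higher at that day. They were Fcgr2b at 1.43 ± 0.24 (adjusted p = 0.00143) and Malt1, a protease of receptor signalling to NF-κB, at 0.32 ± 0.09 (adjusted p = 0.0481). Of the 16 differentiation genes 3 were called at day 3. S1pr2, a receptor that holds B cells in germinal centres, was higher at 0.37 ± 0.11 (adjusted p = 0.0451), and Txndc5, a disulphide isomerase of the endoplasmic reticulum, was higher at 0.43 ± 0.09 (adjusted p = 0.00894). Creld2, an endoplasmic reticulum stress gene made in many cell types, was lower at day 3 by a difference of -0.56 ± 0.10 (adjusted p = 0.00165), at day 7 by -0.38 ± 0.10 (adjusted p = 0.0365), at day 28 by -0.74 ± 0.10 (adjusted p = 0.00254) and at day 56 by -0.75 ± 0.10 (adjusted p = 0.00108). Creld2 in sham was itself above day 0, at 0.58 ± 0.10 (adjusted p = 0.0146). At day 7, where 2.15% of all genes were lower and 2.37% higher than in sham, 1 of the 17 survival and attractant genes was called, S1pr4 at -0.49 ± 0.13 (adjusted p = 0.0477), and 0 of the 20 signalling genes. None of the 3 immunoglobulin genes and none of the 7 precursor genes was called against sham.

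Markers of T and NK cells moved with the B cell members. Of 20, 11 were lower at day 3 against day 0 and 17 at day 7, with medians of -0.61 and -0.74. Of all genes, 2.73% and 4.97% were called lower on these days. Sham lay below day 0 as well, for all 20, with a median of -0.54. In that comparison Cd3e, Cd3g and Cd4 were called lower, or 3 of 20, where 0.381% of all genes were called. Cd3g, a chain of the T cell receptor complex, read 7.59, 8.33 and 7.30 at day 0 and 6.16, 6.14 and 6.14 at day 7, a difference of -1.59 ± 0.17 (adjusted p = 0.00039). Against sham, 1 of the 20 was lower at day 7, Cd3g at -0.71 ± 0.17 (adjusted p = 0.0295), where 2.15% of all genes were lower. At day 3, 1 was lower, Cd2 at -0.60 ± 0.17 (adjusted p = 0.0449), where 3.21% of all genes were. With 1 call of 20 near these shares, the counts against sham say nothing particular about this list. The mean over the 20 was 6.88 to 7.24 on the day 0 arrays and 6.27 to 6.33 on those of day 7. Its highest array after surgery was the day 28 medial lobe at 6.96, which was also the highest array after surgery for the members, at 7.90. The part of other lymphocytes, or of blood and lymphoid tissue in the sample, in the member values was not tested.

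**Figure D5:**
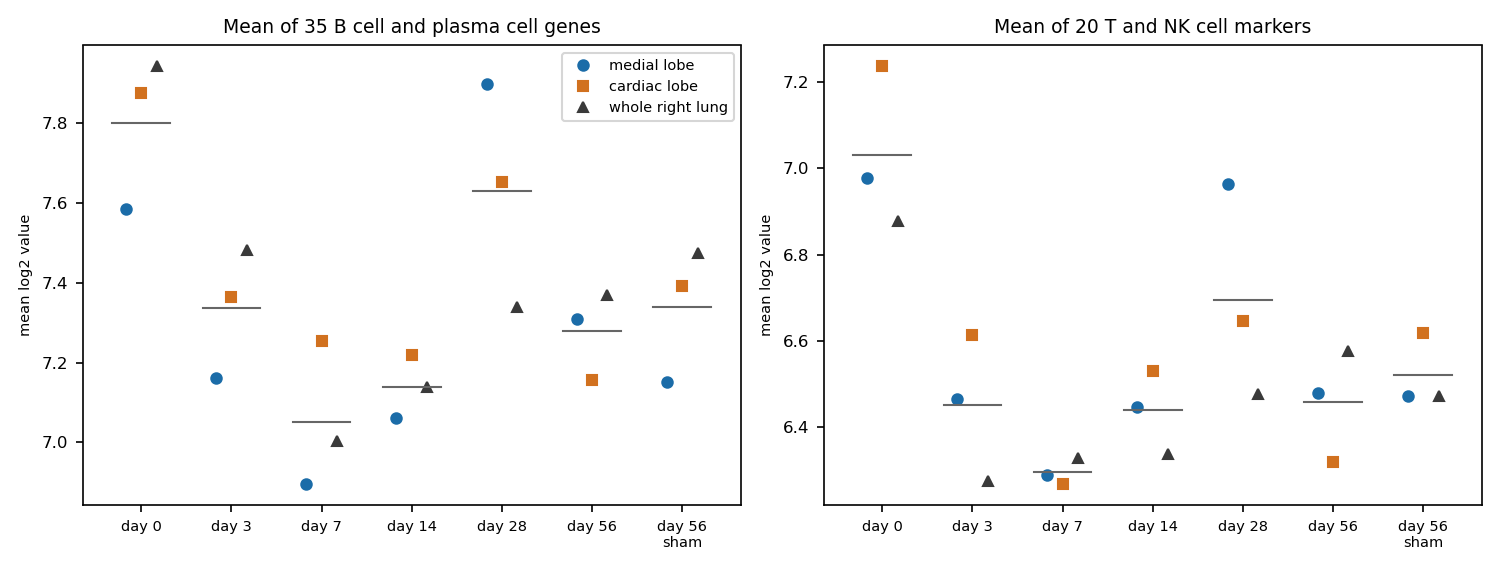
Mean log2 value (y axis) of the 35 members (left) and of 20 T and NK cell markers (right) by condition, with a point per array, shaped and coloured by region, and a line at the mean of the 3 arrays. In both panels the day 0 arrays lie above those of days 3, 7, 14 and 56 and of sham, and the day 28 medial lobe is the highest array after surgery.

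Markers of other cell types gave single calls in short lists, whose shares are too coarse to set against those of all genes. Of 9 markers of lymphoid stroma and high endothelial venules, Clu was higher at days 3 and 7 against day 0, at 0.53 ± 0.10 and 0.64 ± 0.10 (adjusted p = 0.00355 and 0.00193), and against sham, at 0.44 ± 0.10 and 0.54 ± 0.10 (adjusted p = 0.0104 and 0.00571). Mfge8 of that list was lower at day 3 against sham, at -0.41 ± 0.11 (adjusted p = 0.0269). Of 6 mast cell and basophil markers, Mcpt4 was higher at day 7 against day 0, at 0.36 ± 0.11 (adjusted p = 0.0492), and Kit, a receptor also on endothelial cells, was lower against sham at day 3, at -0.77 ± 0.20 (adjusted p = 0.0292), and at day 7, at -0.74 ± 0.20 (adjusted p = 0.0497). Of 6 plasmacytoid dendritic cell markers 0 were called at day 3 and 1 at day 7 against day 0, Siglech at -0.34 ± 0.10 (adjusted p = 0.0497), and none at these days against sham. Among 4 red cell precursor markers Slc4a1 was higher at day 7 against day 0, at 0.56 ± 0.12 (adjusted p = 0.0117), and none was called against sham.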

How the data were processed

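RNA from the right lung was hybridised to 21 Affymetrix arrays. The deposited table holds log2 values, made by the authors with RMA, per the submitters' processing notes; its version is not given in the sources used here. Amplification from the 3' end is described in the labels' protocols, whereas the probe annotation is of a whole-transcript array, and which applied is not settled here. Of 35556 probe sets, 21789 had 1 symbol, 1621 several and 12146 none; 999 of 19938 genes had several probe sets, and the brightest was used.

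limma 3.58.1 in R 4.3.3 fitted condition and region terms to all arrays (12 residual degrees of freedom) with empirical Bayes moderation. The region, which the labels give for each array, served as the block. Adjusted p-values come from this fit. The early response was tested on region by phase contrasts. The scripts were tested on simulated data.

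The members and lists were chosen with earlier results of these data known. By rule, array values are given for members called in at least 2 of 4 comparisons (days 3 and 7 against each control), limited to the 14 with the largest mean size of difference, and always for Ms4a1, Cd79a, Cd79b, Pax5, Jchain, Mzb1 and Xbp1. From each list the 3 genes with the smallest day 7 p were taken; other list genes and Cd22 were named after their values were seen. Alternatives were the region term, the probe set, dim genes, the moderation, centring, the lobes alone and leaving out each array; leaving out both arrays that stood apart was added after seeing the data.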

Additional observations from a re-analysis of the deposited data

How the results depend on the processing

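The count of members lower at day 7 than at day 0 stayed within 1.5 times its value under every alternative run, from 14 to 22 with an array left out. Without the region term (no replicate block) the counts were 9 for day 3, 0 for day 56 and 13 for the F test against day 0 or among conditions, and 0 for day 3 and 5 for day 7 against sham. In the medial and cardiac lobes alone they were 4 for day 3, 3 for day 14 and 0 for day 56 against day 0, 0, 4 and 1 for days 3, 7 and 28 against sham, and 10 for the F test; fewer arrays entered these fits. With brighter genes only, 1 member was called from day 3 to day 7 and 12 by the F test, with 19 members tested. Trend and robust moderation gave 4 at day 56 against day 0 and 1 from day 3 to day 7. Centring gave 4 between lobes and whole lung. Without both arrays that stood apart the counts were 1, 0 and 5 for days 28, 56 and sham against day 0, 2, 3 and 2 for days 3, 7 and 56 against sham, and 5 between lobes and whole lung. With single arrays left out, counts ran from 2 to 15 (day 3), 3 to 14 (day 14) and 0 to 2 (day 56) against day 0, from 0 to 1 (day 3) and 0 to 5 (day 7) against sham, from 0 to 1 from day 3 to day 7 (1 without the day 3 medial lobe), from 1 to 8 between lobes and whole lung, and from 10 to 22 for the F test. The share of all genes called in each of these fits is not given here, and the causes were not tested.

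Alternative values were computed for 15 members at day 3 and day 7 against day 0 and day 7 against sham, for Cd180 at day 3 against sham, and for Jchain at day 7 against day 0 and days 28 and 56 against both controls. Of these, 522 kept direction and side of the threshold, 120 lost the threshold, 1 gained it (Jchain at day 56 against sham) and 5 changed sign; other comparisons are covered by the counts above. Cd180 at day 3 against day 0 was -0.148 in the lobes alone, -0.011 without the day 0 whole lung and -0.105 without the day 3 whole lung, and reached 0.216 without the day 3 medial lobe. Vpreb3 at day 7 against sham was 0.042 without both arrays that stood apart and ran from -0.464 without the day 7 whole lung to 0.059 without the day 7 cardiac lobe. Neither was called. The file carries no detection calls, so dim members such as Cr2 and Cxcr5 could lie near background, and differences there may be understated.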
